A study of Homo sapiens with 14 samples.

Results

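The 9 genes described here are PAX5, BACH2, BCL6, EBF1, SPIB, SPI1, CD22, CD79A and CD79B, members of the B cell program that plasma cells are known to switch off. They were chosen by name and not by a rule on their values, though with earlier results of these data known. They are 9 of 19970 protein-coding genes. Each was given a window made of its gene body in GENCODE release 44 and 100 kb on each side, and every reference peak of accessible chromatin in that window was counted. The windows held 154 of the 72802 reference peaks of the MM.1S line and 144 of the 79969 of the RPMI8226 line. All coordinates are in the hg38 build.

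The study profiled accessible chromatin by Omni-ATAC, where a transposase cuts open DNA and adds sequencing adapters to it, in 14 libraries of MM.1S and RPMI8226. Both are established human multiple myeloma lines, and myeloma is a cancer of plasma cells. Cells were grown alone (MONO) or with HS5, a stromal line of human bone marrow. Cocultured cells came from the upper transwell, separated from HS5 by a membrane (TSW), or from the lower chamber in contact with HS5 (CO). MM.1S had 3 MONO, 3 TSW and 3 CO libraries, and RPMI8226 had 1 MONO, 2 TSW and 2 CO libraries. MM cells were isolated by sorting, and by the study's methods a small share of HS5 cells remained in the sorted CO samples. The labels give repeat numbers but do not say whether the repeats came from separate cultures. Each line is a single cell line, so a difference between the lists is one between these lines and not between kinds of myeloma.

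A reference peak was a region called in at least 3 libraries of its line, whatever their culture condition. The only value given for a peak is a whole number, read here as its support, the number of libraries in which it was called, with a highest possible value of 9 in MM.1S and 5 in RPMI8226. The lists hold no value for a single library and no read depth, and the read totals in the study's supplement were not used here. For this reason effects of the culture conditions were not analysed here, the part of depth in the support of a peak was not tested, and nothing below was tested. A peak counted as shared if at least 1 bp of it lay in a peak of the other line. The lists are unequal in 2 ways that touch every comparison between them. A minimum of 3 libraries is easier to reach among 9 than among 5, and MM.1S peaks were wider, with a median of 536 bp against 362 bp.

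In B cells, the transcription factors EBF1 and PAX5 set and hold the identity of the lineage, PU.1 (encoded by SPI1) and its relative SPIB work with them at enhancers, and BCL6 and BACH2 keep the cell from becoming a plasma cell. CD79A and CD79B are the signalling chains of the B cell receptor, and CD22 is a lectin that dampens its signal. When a B cell becomes a plasma cell, the repressor Blimp-1 (encoded by PRDM1) takes part in closing this program. Expression is not part of the files, so whether the 9 genes were silent in these cells was not examined, and what follows is where their chromatin was accessible.

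The sequences at the start sites of PAX5, EBF1 and SPIB are shown first, because they are among the members whose main start site carried a peak in the MM.1S list and none in the RPMI8226 list. The main start site is that of the GENCODE canonical transcript. Each stretch is the part of an MM.1S peak nearest upstream of the start, up to 250 bases, read from hg38 on the gene's own strand, and none overlaps an annotated exon.

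PAX5, chr9:37034269-37034518, minus strand: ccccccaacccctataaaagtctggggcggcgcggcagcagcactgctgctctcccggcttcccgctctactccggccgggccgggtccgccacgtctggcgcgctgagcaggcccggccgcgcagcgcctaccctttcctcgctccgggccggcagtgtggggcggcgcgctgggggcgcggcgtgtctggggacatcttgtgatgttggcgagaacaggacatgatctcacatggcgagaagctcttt
EBF1, chr5:159100127-159100376, minus strand: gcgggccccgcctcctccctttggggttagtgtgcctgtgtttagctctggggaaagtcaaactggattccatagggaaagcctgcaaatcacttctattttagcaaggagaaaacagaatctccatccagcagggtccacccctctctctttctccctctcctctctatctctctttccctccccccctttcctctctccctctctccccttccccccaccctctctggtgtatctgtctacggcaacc
SPIB, chr19:50418877-50418937, plus strand: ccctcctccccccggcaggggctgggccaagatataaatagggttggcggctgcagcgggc

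The stretches differed in base composition. The PAX5 stretch held 69.6% G and C and 27 CpG dinucleotides in 250 bases. The EBF1 stretch held 54.8% and 3 CpG in as many bases, and the SPIB stretch 68.9% and 3 CpG in 61 bases.

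All 9 members had an MM.1S peak within 2500 bp of at least 1 of their annotated start sites, where 77.0% of all protein-coding genes did. In RPMI8226 6 of 9 did, against 72.0% of all genes, and the members without one were SPIB, CD22 and CD79B. A peak in MM.1S and not in RPMI8226, as these 3 had, was found in 8.21% of all genes, and the reverse, found in 3.17%, in 0 members. The count at the canonical start site was added after seeing the data. It was 8 of 9 in MM.1S, against 71.7% of all genes, and 4 of 9 in RPMI8226, against 65.4%. The 4 with such a peak in both lines were BACH2, BCL6, SPI1 and CD79A, where 62.2% of all genes had one in both. PAX5, EBF1, SPIB and CD79B had one in MM.1S and not in RPMI8226, a pattern found in 9.45% of all genes. No member had the reverse pattern, which 3.15% of all genes showed. CD22 had no peak at its canonical start site in either list.

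Counting only peaks called in every library, 7 of 9 members had one at any start in MM.1S and 5 of 9 in RPMI8226, against 69.4% and 66.7% of all genes. At the canonical start it was 7 of 9 and 3 of 9, against 64.7% and 60.6%. The split between the lines thus involved peaks of full support as well as weaker ones. PAX5, EBF1 and CD79B had a canonical start site peak called in 9 of 9 MM.1S libraries and none in the RPMI8226 list, a pattern of 5.92% of all genes. SPIB had a support of 6 of 9. The CD22 peak at an outer start site had a support of 3 of 9, the lowest a listed peak can have, and it is lost when MM.1S peaks must be in at least 6 libraries. With that requirement, SPIB and CD79B were left as members with a peak at any start site in MM.1S and not in RPMI8226, against 6.83% of all genes. A peak missing from the RPMI8226 list may still have been called in 1 or 2 of its libraries.

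**Figure D1:**
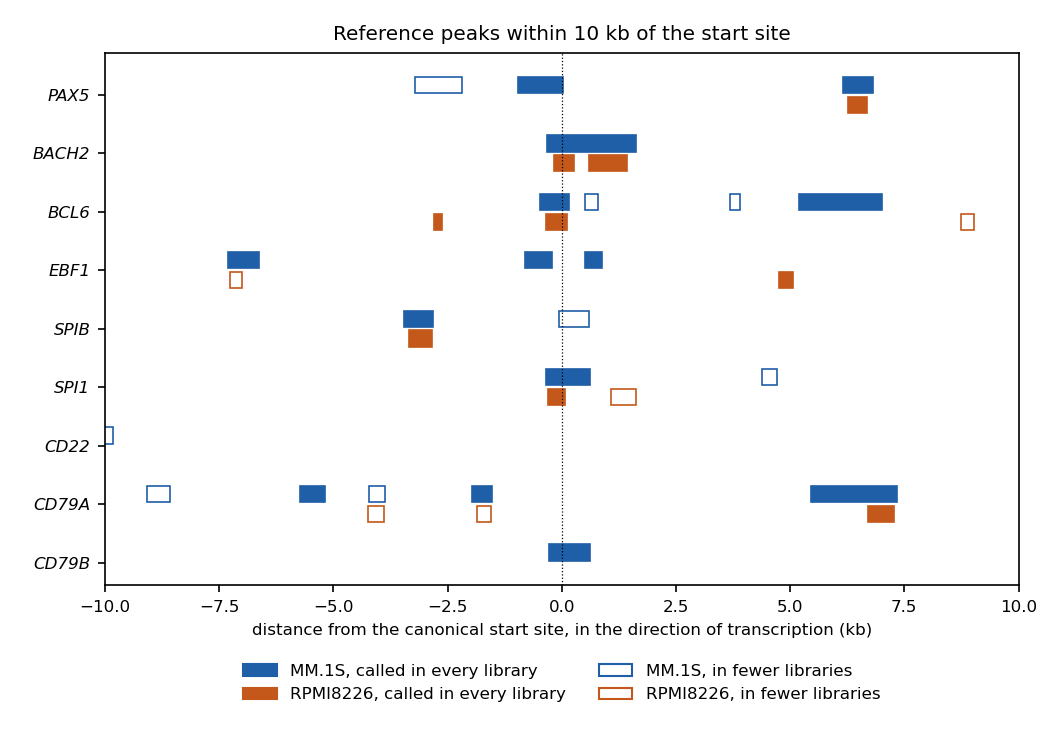
Reference peaks within 10 kb of the canonical start site of each member, by distance in the direction of transcription (kb). MM.1S peaks are blue and RPMI8226 peaks orange, filled where called in every library of the line (9 or 5) and open where called in fewer. MM.1S peaks lie on or beside the start of PAX5, EBF1, SPIB and CD79B with no RPMI8226 peak there.

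PAX5 spans chr9:36833269-37034268 on the minus strand. Its start lay in an MM.1S peak of 990 bp at chr9:37034238-37035227, called in all 9 libraries, and a further MM.1S peak of 1008 bp at chr9:37036463-37037470 had a support of 8. Neither overlapped an RPMI8226 peak. The closest RPMI8226 peak ended 6274 bp from the start, at chr9:37027588-37027994 in intron 1, where it was called in all 5 libraries and met an MM.1S peak of 649 bp with a support of 9. This intron 1 peak lies by the start of shorter PAX5 transcripts, which is why PAX5 counts as having a start site peak in both lines when every annotated start is used. So the lines shared the inner start site region and differed at the outer one.

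Across the PAX5 window the lines had many distal peaks in common. The gene body itself held 8 distal peaks in MM.1S and 10 in RPMI8226. Of all distal peaks in the whole lists, 60.0% in MM.1S and 53.7% in RPMI8226 were shared. MM.1S had 14 distal peaks in the window and RPMI8226 also 14, distal meaning over 2500 bp from every annotated start of any gene, and 10 of each were shared. The widest in MM.1S was a shared peak of 1176 bp in intron 7 at +120.5 kb, called in 9 libraries, where positions are those of a peak's midpoint from the canonical start in the direction of transcription and negative values lie upstream. The widest in RPMI8226, of 722 bp with a support of 5, lay at +130.4 kb in the same intron. The distal peak nearest to the start was at -32.1 kb in both lines, with supports of 9 and 5. The widest distal peak of 1 list alone was 468 bp with a support of 7 at +262 kb in MM.1S and 379 bp with a support of 3 at +277 kb in RPMI8226. In MM.1S, 5 of the 10 shared PAX5 distal peaks and 0 of the 4 others were called in every library.

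BACH2 spans chr6:89926528-90296843 on the minus strand. Its start was accessible in both lines. A single MM.1S peak of 1935 bp at chr6:90295228-90297162, the widest start site peak among the members, had a support of 9. RPMI8226 had peaks of 440 bp at chr6:90296577-90297016 and 836 bp at chr6:90295417-90296252 under it, both called in 5 of 5 libraries. A second start region in intron 3, at +78.0 kb in MM.1S and +77.8 kb in RPMI8226, was also shared, with widths of 880 and 779 bp and supports of 9 and 5.

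RPMI8226 had further BACH2 start site peaks that MM.1S lacked. Peaks of 271 and 622 bp with a support of 5 lay at +288.4 and +287.7 kb, and a peak of 145 bp with a support of 3 lay at +80.4 kb. MM.1S in turn had more distal peaks of its own, 9 of 16 against 5 of 13 in RPMI8226. The widest of these, 882 bp at +342 kb in intron 6, and peaks of 669 bp at +193 kb and 461 bp at +127 kb in intron 4 were each called in 9 of 9 libraries. The widest RPMI8226 distal peak, 466 bp at +120.8 kb in intron 4 with a support of 5, was likewise absent from the other list. The distal peak nearest to the start was shared, at +11.2 kb in MM.1S with 699 bp and a support of 9, and at +11.1 kb in RPMI8226 with 306 bp and a support of 5. Of the 9 BACH2 distal peaks of MM.1S alone, 6 were called in every MM.1S library, whereas PAX5 had 0 of that kind.

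BCL6 spans chr3:187721377-187745725 on the minus strand. Its start carried a peak in both lines, of 631 bp with a support of 9 at chr3:187745319-187745949 in MM.1S and of 461 bp with a support of 5 at chr3:187745347-187745807 in RPMI8226. Around it the lists parted. MM.1S had a peak of 1813 bp at chr3:187738456-187740268 in intron 1, called in 9 of 9 libraries, and one of 293 bp at +0.6 kb with a support of 4, and RPMI8226 had neither. RPMI8226 had a peak of 276 bp with a support of 4 at chr3:187736448-187736723, by a second start site in intron 1 at +8.9 kb, and one of 168 bp with a support of 5 at -2.7 kb. The second RefSeq start of BCL6 has 222 of its 250 upstream bases in the former peak and 0 in an MM.1S peak. The 24.3 kb gene body held no distal peak in either line, and all 8 distal peaks of each list lay outside it.

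Of those 8, 6 were shared in each line. The nearest to the start lay upstream at -24.9 kb in MM.1S and -25.0 kb in RPMI8226, with supports of 9 and 5. The widest distal peak of each list was its own. It measured 940 bp at +97.1 kb in MM.1S and 1123 bp at -28.5 kb in RPMI8226, and both were called in every library of their line. The RPMI8226 peak lies between shared peaks at -25.0 and -32.1 kb, so it sits inside an accessible stretch that both lines have in part.

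EBF1 spans chr5:158695920-159099916 on the minus strand. MM.1S had peaks on both sides of its start, 584 bp at chr5:159100127-159100710, which begins 211 bp upstream, and 373 bp at chr5:159099041-159099413 in intron 1. Both were called in 9 of 9 libraries, both also stood at an annotated start of LINC02202, and neither was shared. The nearest RPMI8226 peak, 308 bp at chr5:159094847-159095154 in intron 4 with a support of 5, was 4762 bp from the start and met no MM.1S peak. It counts as a start site peak through a shorter annotated transcript that does not code for protein. A further RPMI8226 peak at an inner start, 291 bp at +81.9 kb, had a support of 3. No start site peak of EBF1 was shared between the lines.

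The EBF1 window was the emptiest of the 9, with 21.5 peaks per Mb in MM.1S and 29.8 in RPMI8226. These values stood at the 21.7 and 32.2 percentiles of the same windows around all protein-coding genes. The window holds an annotated start of RNF145, where RPMI8226 had a peak of 423 bp with a support of 4 at -63.5 kb. The widest distal MM.1S peak was also the nearest to the start, 690 bp at -20.6 kb with a support of 9. It was shared with an RPMI8226 peak of 255 bp and a support of 5. The widest peaks of 1 list were 441 bp at -33.4 kb with a support of 5 in MM.1S and 481 bp at -98.7 kb with a support of 5 in RPMI8226. RPMI8226 had 8 of 14 distal peaks to itself and MM.1S 4 of 10. Of all 18 RPMI8226 peaks in this window, 12 were called in fewer than 5 libraries and 6 in only 3, so this window had the lowest share of fully supported RPMI8226 peaks of any member.

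SPIB spans chr19:50418938-50431314 on the plus strand. Its start lay in an MM.1S peak of 649 bp at chr19:50418877-50419525 with a support of 6 of 9. That peak also stood at an annotated start of POLD1. RPMI8226 had no peak there, and its nearest, of 499 bp with a support of 5, lay 2844 bp upstream at an annotated start of POLD1 and was shared. The gene body held no distal peak in either line. The widest distal peaks were shared ones, 631 bp at -93.3 kb with a support of 9 in MM.1S and 541 bp at +41.5 kb with a support of 5 in RPMI8226. The distal peak nearest to the start was also shared, at +30.6 kb, with supports of 5 of 9 and 5 of 5. The widest peaks of 1 list were 501 bp at +73.4 kb with a support of 7 in MM.1S and 262 bp at -77.7 kb with a support of 4 in RPMI8226. The window was dense, at the 87.2 and 88.8 percentiles of all genes, and it holds the starts of 10 other protein-coding genes, all of which had a peak in both lines.

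SPI1 spans chr11:47354860-47378547 on the minus strand. Its start carried a shared peak, of 965 bp with a support of 9 at chr11:47377929-47378893 in MM.1S and of 384 bp with a support of 5 at chr11:47378471-47378854 in RPMI8226. RPMI8226 had a further peak of 553 bp at chr11:47376924-47377476 in intron 1, with a support of 3. The nearest distal peak in MM.1S, 322 bp at +4.5 kb in intron 2 with a support of 8, was absent from the RPMI8226 list. In RPMI8226 the nearest was at +29.5 kb, shared, with a support of 5. The widest distal peak of both lists was a shared one, of 420 bp at -75.8 kb in MM.1S and 221 bp at -75.9 kb in RPMI8226, called in every library. The widest MM.1S distal peak without a partner was 361 bp at +39.3 kb with a support of 3, and RPMI8226 had no distal peak of its own here. SPI1 thus had few distal peaks in either line, 4 in MM.1S and 2 in RPMI8226.

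Of the 3 surface genes, CD22 is 28.1 kb long, CD79A 4.1 kb and CD79B 3.6 kb, and all stand among other genes. CD22 spans chr19:35319261-35347361 on the plus strand. It had a single start site peak, which also stood at a start of another annotated gene. This was 370 bp at chr19:35318989-35319358 in MM.1S with a support of 3 of 9, at an outer start whose peak edge lies 9829 bp from the canonical start. In RPMI8226 the nearest peak of any kind was 31928 bp away. MM.1S had its widest distal peak here at chr19:35295873-35297072, 1200 bp with a support of 8 at -32.7 kb, and its nearest at +23.7 kb, 583 bp with a support of 8, both absent from RPMI8226. The widest RPMI8226 distal peak, 601 bp at +91.2 kb with a support of 5, was shared. Its widest and nearest distal peak without a partner measured 418 bp at +45.8 kb with a support of 4. SPIB and CD79B also had a single start site peak over both lists, and that of CD22 had the lowest support of these.

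CD79A spans chr19:41877279-41881372 on the plus strand. Neither line had a peak on the start itself. A shared peak stood upstream, of 441 bp at chr19:41875307-41875747 in MM.1S, 1532 bp from the start with a support of 9, and of 303 bp at chr19:41875432-41875734 in RPMI8226, 1545 bp from the start with a support of 3 of 5. It counts as a start site peak at 2500 bp and not at 1000 bp. The nearest distal peak was shared at -4.0 kb with a support of 6 in MM.1S, and at -4.1 kb with a support of 4 in RPMI8226. The widest distal peak was shared too, 939 bp at +68.2 kb in MM.1S and 696 bp at +68.1 kb in RPMI8226, with supports of 9 and 5. The widest of 1 list were 840 bp at +35.9 kb with a support of 8 in MM.1S and 321 bp at -23.4 kb with a support of 5 in RPMI8226. The CD79A window held 21 MM.1S peaks and 11 RPMI8226 peaks, the widest gap in number among the members, and its density stood at the 94.3 percentile of all genes in MM.1S and the 61.3 percentile in RPMI8226.

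CD79B spans chr17:63928738-63932336 on the minus strand. An MM.1S peak of 882 bp at chr17:63931721-63932602, called in 9 of 9 libraries, covered the start and reached into intron 1. This peak also stood at a start of another annotated gene. It had no partner in RPMI8226, whose nearest peak lay 12669 bp away by the growth hormone gene GH1. Yet the number of peaks in the window was 19 in each line, at the 91.0 and 90.5 percentiles of all genes. The widest distal MM.1S peak, 1247 bp at +43.1 kb with a support of 8, and the nearest, 620 bp at -14.5 kb with a support of 8, were both shared. The one at -14.5 kb was the widest and nearest distal peak in RPMI8226 as well, with 679 bp and a support of 5. The widest of 1 list were 334 bp at +28.3 kb with a support of 4 in MM.1S and 470 bp at -61.5 kb with a support of 4 in RPMI8226. Here the lines differed at the gene's own start while much of the chromatin around it was shared.

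**Figure D2:**
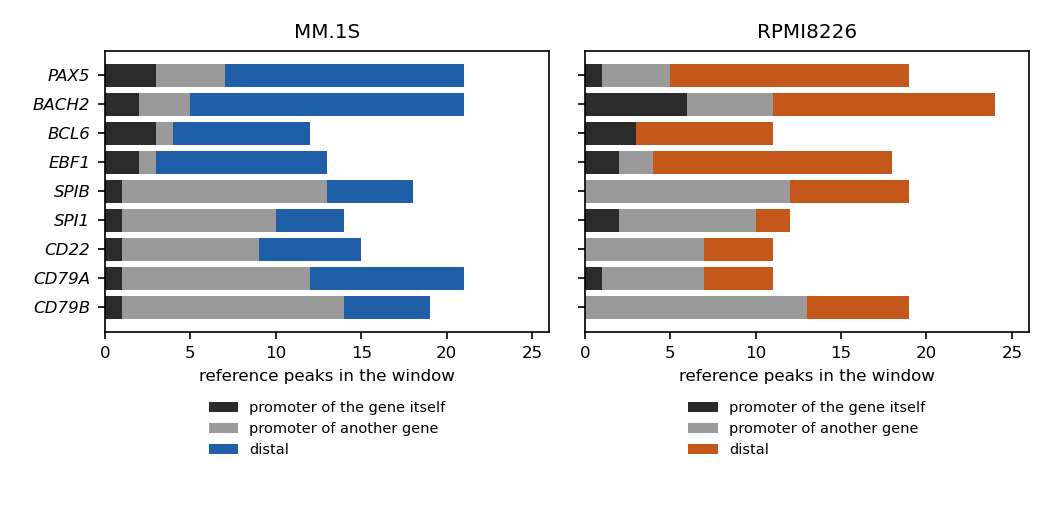
Number of reference peaks in the window of each member in MM.1S (left) and RPMI8226 (right). Black parts are peaks at the start of the member itself, some of them also at the start of another gene. Grey parts are peaks at starts of other genes only, and coloured parts distal peaks. SPIB, SPI1 and the surface genes have mostly grey bars, and SPIB, CD22 and CD79B have no black part in RPMI8226.

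Over all windows, start site peaks of any gene made up 77 of 154 member peaks in MM.1S and 72 of 144 in RPMI8226, which is 50.0% in each, against 39.2% and 36.0% of the whole lists. Only 15 peaks in each line stood at a start of the members themselves, and some of these also stood at a start of another gene. Another 62 in MM.1S and 57 in RPMI8226 stood at starts of other genes only. The number of these varied by gene from 1 at BCL6 and EBF1 to 13 at CD79B in MM.1S. The rest, 77 and 72, were distal. The stacked counts by gene show that the windows of PAX5, BACH2, BCL6 and EBF1 were led by distal peaks, whereas in those of SPIB, SPI1, CD22, CD79A and CD79B most peaks belonged to neighbours.

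Distal peaks inside a gene body occurred in PAX5, BACH2 and EBF1, with 8, 11 and 4 in MM.1S and 10, 8 and 7 in RPMI8226, and once in SPI1 in MM.1S. The bodies of BCL6, SPIB, CD22, CD79A and CD79B held 0 in both lines. The lengths differ widely, from 3.6 kb for CD79B to 404 kb for EBF1. PAX5, BACH2 and EBF1 are the longest members. Among the shorter ones SPI1, of 23.7 kb, had such a peak and CD22, of 28.1 kb, had none.

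**Figure D3:**
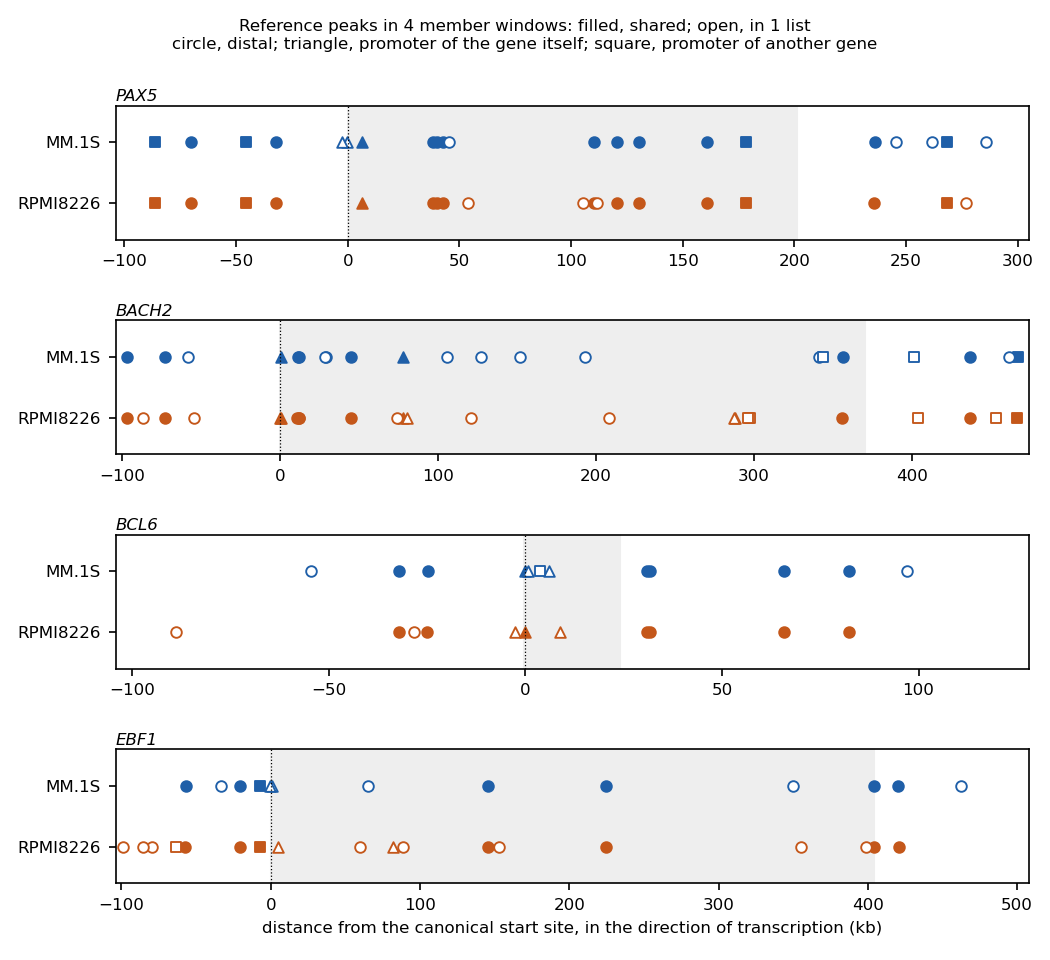
Positions of all reference peaks in the windows of PAX5, BACH2, BCL6 and EBF1, as distance from the canonical start site in the direction of transcription (kb), with the gene body shaded. Filled symbols are shared and open symbols in 1 list. Circles are distal peaks, triangles start site peaks of the gene itself and squares those of another gene. PAX5 has filled symbols along its body, whereas BACH2 and EBF1 have many open ones.

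In MM.1S 57.8% of member peaks were shared (89 of 154, 95% Wilson interval 49.9 to 65.3), beside 64.6% of the whole list. In RPMI8226 66.0% were shared (95 of 144, 57.9 to 73.2), beside 62.0% of its list. Intervals here cover counting error only, and neighbouring peaks are not independent. Both intervals hold the value of the whole list. Start site peaks of the members themselves were shared in 6 of 15 cases in MM.1S and 7 of 15 in RPMI8226, that is 40.0% (19.8 to 64.3) and 46.7% (24.8 to 69.9). These intervals lay below the 71.8% and 76.6% of all start site peaks in the whole lists, though some of these 15 peaks stand at several starts of 1 gene. Those of other genes in the same windows were shared in 39 of 62 and 42 of 57. Distal peaks were shared in 57.1% of cases in MM.1S (44 of 77, 46.0 to 67.6), beside 60.0% of all distal peaks, and in 63.9% in RPMI8226 (46 of 72, 52.4 to 74.0), beside 53.7%. Both intervals again held the value for all distal peaks of the list.

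Shared member peaks had higher support. Of the 79 MM.1S member peaks called in all 9 libraries, 62 were shared, and of the 11 called in 3 libraries, 2 were. In RPMI8226, 73 of 94 peaks with a support of 5 and 10 of 22 with a support of 3 were shared. Among distal MM.1S peaks, shared ones had a median width of 494.5 bp and a median support of 9, and those of MM.1S alone 438 bp and 7. In RPMI8226 the widths were close, at 332 bp for shared and 320.5 bp for other distal peaks, with median supports of 5 and 4. In the 95 pairs of overlapping member peaks 80 (84.2%) had the wider peak on the MM.1S side, and 57 pairs had full support on both sides. All 7 pairs at the members' own starts were wider in MM.1S. MM.1S peaks were wider in the whole lists too, with medians of 536 and 362 bp. The other counts of this paragraph are given without values for the whole lists, so they are not read as particular to the members.

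Support over all member peaks resembled that of the whole lists. It was full for 51.3% in MM.1S (79 of 154, 43.5 to 59.1), beside 52.0% of the list, and for 65.3% in RPMI8226 (94 of 144, 57.2 to 72.6), beside 64.1%. For the transcription factors 59 of 99 MM.1S peaks had full support, and for the surface genes 20 of 55. In RPMI8226 the same shares were 65.0% for the transcription factors and 65.9% for the surface genes. Distal peaks near the surface genes had full support in 3 of 20 cases in MM.1S and 6 of 14 in RPMI8226, and those near the transcription factors in 30 of 57 and 32 of 58. Of all distal peaks in the whole lists, 42.0% in MM.1S and 58.5% in RPMI8226 had full support.

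Support also bounds what the culture conditions can have had in common. An MM.1S peak called in 7 or more of 9 libraries cannot have been missed in a whole condition of 3 libraries, and this held for 115 of 154 member peaks, or 74.7%. The other 39, or 25.3%, could have been absent from every MONO library, beside 27.66% of the whole list. In RPMI8226, which has 1 MONO library, only a peak called in all 5 is certain to be there. Of its member peaks 50 of 144, or 34.7%, could have been missing, beside 35.85% of its whole list. The MM.1S start site peaks of PAX5, BACH2, BCL6, EBF1, SPI1, CD79A and CD79B with a support of 9 were therefore present in cells grown without HS5, as were the RPMI8226 peaks with a support of 5 at the starts of BACH2, BCL6 and SPI1. For SPIB and CD22 in MM.1S, and CD79A in RPMI8226, the lists do not say in which condition the start site peak was called.

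Short letter patterns of 12 motifs were counted on both strands in the central 200 bp of each peak, to describe which factors' letters the distal regions carry. They were AP-1 (TGANTCA), MARE, the site of BACH and MAF proteins (TGC directly before the AP-1 letters), PU.1 (GAGGAAGT), ETS-IRF (GGAA, any 2 bases, GAAA), ISRE (GAAA, any 2 bases, GAAA), PRDM1 (AGTGAAAG), EBF (CCCNNGGGA), octamer, read by POU2F2 and its relatives (ATGCAAAT), E-box (CAGNTG), BCL6/STAT (TTCCNNGAA), RUNX (TGTGGTT) and CTCF (CCA, any 2 bases, AG, any 2 bases, GGC). Every MARE holds an AP-1 match, and ETS-IRF, ISRE and PRDM1 matches can overlap. A match is a description of the letters and not a bound site.

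AP-1 letters were found in 15 of 77 distal MM.1S peaks near the members, 19.5% (12.2 to 29.7), where 12.4% of all distal MM.1S peaks had them. In RPMI8226 it was 22 of 72, 30.6% (21.1 to 42.0), where 21.1% of all had them. Both values lay above those of the whole lists. The MM.1S interval contains the list's value, and the lower end of the RPMI8226 interval lies at it. PU.1 letters occurred in 1 of 77 and 4 of 72 distal peaks, beside 2.99% and 4.92% of all. PRDM1 letters, the site of the repressor that closes the program, occurred in 3 of 77 and 2 of 72, beside 2.89% and 2.96%. EBF letters occurred in 3 of 77 and 3 of 72, beside 3.37% and 3.00%. CTCF letters occurred in 8 of 77 and 7 of 72, or 10.4% (5.36 to 19.2) and 9.72% (4.79 to 18.7), beside 6.93% and 5.61%. The intervals of these 4 motifs all contain the value of the whole list. BCL6/STAT letters, which the BCL6 protein reads, stood in 5 of 77 distal MM.1S peaks, 6.49% (2.81 to 14.3), beside 2.49% of all, an interval above the list's value. In RPMI8226 it was 3 of 72, 4.17% (1.43 to 11.6), beside 2.74%, an interval that contains it. The CD79B matches at +43.1 and +28.3 kb in MM.1S stand in near-copies of the same stretch of letters. Those at +66.1 and +43.1 kb in RPMI8226 stand in copies of it too. Such matches are not separate cases, and the BCL6/STAT intervals do not allow for that. Nor was any allowance made for looking at 12 motifs.

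**Figure D4:**
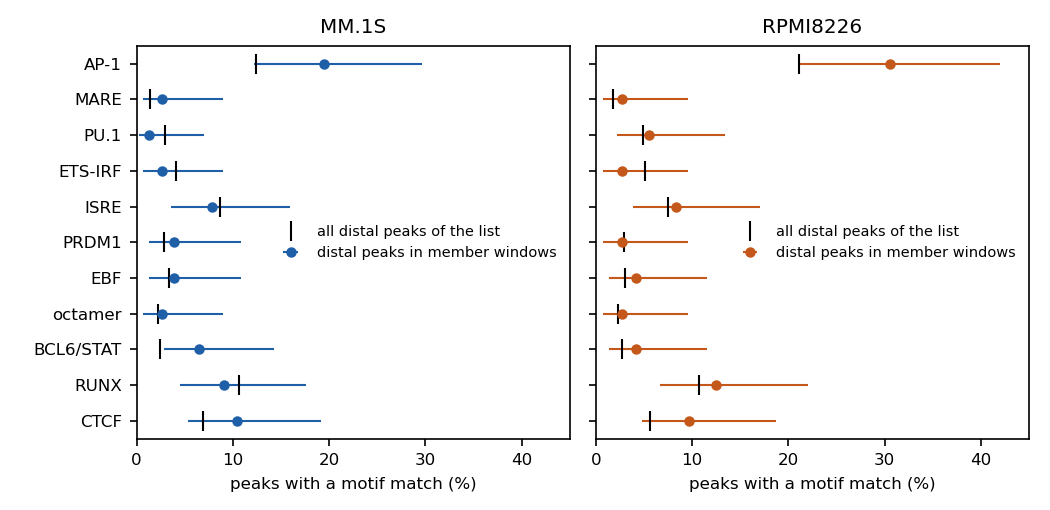
Share of distal peaks in member windows with a motif match in their central 200 bp (points, with 95% Wilson intervals over 77 MM.1S and 72 RPMI8226 peaks) and share of all distal peaks of the list (black ticks), in percent. E-box matches, at 48.1% and 51.4%, are not drawn. AP-1 has the highest share among the drawn motifs in both lines.

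The following central windows of distal peaks, on the plus strand of hg38, carry the letters of factors that are themselves members of the program or its repressor. None overlaps an annotated exon, and capitals mark matches. They were picked for holding such letters, to show what the matches look like in accessible regions near these genes, and they carry no weight beyond the counts above.

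PAX5 intron 7, +130.4 kb, chr9:36903751-36903950: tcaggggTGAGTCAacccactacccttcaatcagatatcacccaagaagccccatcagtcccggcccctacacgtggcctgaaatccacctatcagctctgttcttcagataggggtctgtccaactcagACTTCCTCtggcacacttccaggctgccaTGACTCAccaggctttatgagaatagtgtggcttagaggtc
PAX5 intron 5, +40.1 kb, chr9:36994056-36994255: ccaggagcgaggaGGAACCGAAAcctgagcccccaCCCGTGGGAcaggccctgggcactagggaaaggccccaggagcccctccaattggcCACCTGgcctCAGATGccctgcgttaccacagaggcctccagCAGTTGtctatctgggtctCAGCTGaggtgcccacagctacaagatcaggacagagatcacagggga
EBF1 upstream, -20.6 kb, chr5:159120465-159120664: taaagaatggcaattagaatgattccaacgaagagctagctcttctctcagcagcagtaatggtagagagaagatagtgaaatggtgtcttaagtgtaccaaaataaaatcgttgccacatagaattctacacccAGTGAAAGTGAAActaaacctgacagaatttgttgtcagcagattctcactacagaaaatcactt
EBF1 intron 6, +224.5 kb, chr5:158875318-158875517: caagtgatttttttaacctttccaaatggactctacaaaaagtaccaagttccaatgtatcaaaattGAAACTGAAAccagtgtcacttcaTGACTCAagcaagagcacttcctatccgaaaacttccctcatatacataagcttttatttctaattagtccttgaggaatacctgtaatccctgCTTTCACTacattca
BACH2 intron 1, +11.1 kb, chr6:90285693-90285892: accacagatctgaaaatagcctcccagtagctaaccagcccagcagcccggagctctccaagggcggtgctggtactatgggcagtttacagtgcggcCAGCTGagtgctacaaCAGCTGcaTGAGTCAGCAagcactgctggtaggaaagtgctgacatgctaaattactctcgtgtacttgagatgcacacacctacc
CD22 upstream, -32.7 kb, chr19:35296373-35296572: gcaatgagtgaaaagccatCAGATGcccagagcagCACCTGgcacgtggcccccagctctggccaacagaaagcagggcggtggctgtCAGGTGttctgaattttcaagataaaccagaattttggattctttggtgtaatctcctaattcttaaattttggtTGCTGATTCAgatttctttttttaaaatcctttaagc

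The first window lies in a shared peak with supports of 8 in MM.1S and 5 in RPMI8226, and it holds 2 AP-1 matches and the PU.1 letters ACTTCCTC. It is the only distal member peak of MM.1S with PU.1 letters. The second, with ETS-IRF, EBF and E-box letters, is also shared but weakly supported, at 3 of 9 and 4 of 5 libraries. The window upstream of EBF1 has PRDM1 and ISRE letters run together as AGTGAAAGTGAAA, in the peak with full support in both lines described above. The EBF1 intron 6 window has PRDM1, ISRE and AP-1 letters in a peak with supports of 5 of 9 and 4 of 5. The BACH2 window is centred on the RPMI8226 peak and holds a MARE, the site of the BACH2 protein itself, at TGAGTCAGCA, in a peak shared by the lines. The CD22 window holds a MARE in the MM.1S peak that RPMI8226 lacks. Letters of the program's own factors were thus seen in shared peaks and in peaks of 1 line.

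Promoter letters were also read in the 250 bases upstream of the RefSeq start (GRCh38.p14), for 7 of the 9 members. SPI1 and CD79B had no entry, so these counts say nothing of their promoters. The stretches read for EBF1, CD22 and CD79A had 0 bases in a peak of either list, so their letters are not those of accessible regions. Among all 34961 RefSeq promoters of this length, EBF letters stood in 7.83%, the octamer in 1.63%, an E-box in 42.5%, AP-1 letters in 6.54% and PRDM1 letters in 1.08%. Of the 7 members, 0 had EBF letters, 0 had the octamer and 3 had an E-box, namely BCL6, EBF1 and CD79A. EBF1 was the only one of the 7 with PRDM1 letters, which overlap ETS-IRF letters there, and BCL6 the only one with AP-1 letters, at its second start.

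Start site peaks were also counted on lists of other genes, at any annotated start site. Of all protein-coding genes, 77.0% had such a peak in MM.1S and 72.0% in RPMI8226. A peak there is thus the common case, and these counts do not establish the identity of the cells. All 10 plasma cell genes looked at, among them PRDM1, XBP1, IRF4 and SDC1, had a peak in both lines. Of 22 other B cell genes, 19 had one in MM.1S and 20 in RPMI8226. MS4A1, which encodes CD20, had none in either line, and FCER2 had one in RPMI8226 only, with a support of 5. At the canonical start 16 of 22 had one in each line, beside 71.7% of all genes in MM.1S and 65.4% in RPMI8226. IRF8 and ETS1 had theirs only at other starts, with full support in both lines. The wider B cell list thus had equal counts in the lines at the canonical start, where the 9 members had 8 and 4. That difference between lists was not tested.

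**Figure D5:**
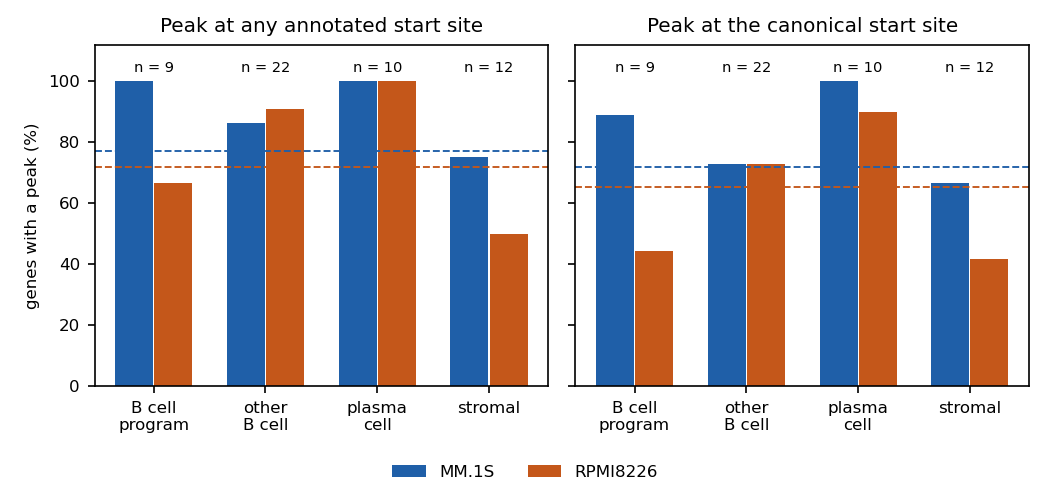
Percent of genes with a reference peak within 2500 bp of any annotated start site (left) or of the canonical start site (right), for the 9 B cell program members, 22 other B cell genes, 10 plasma cell genes and 12 stromal genes. Dashed lines give the percent of all 19970 protein-coding genes in each line. At the canonical start the members stand at 88.9% in MM.1S and 44.4% in RPMI8226, a count added after seeing the data.

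Markers of stromal cells, the other cell type in the cocultures, were looked at in the same way. Of 12, 9 had a start site peak in MM.1S and 6 in RPMI8226, beside 77.0% and 72.0% of all genes. SPARC, TWIST1 and LOX had one in MM.1S alone, each with a support of 9, so that these peaks were called in the monocultures too. COL3A1, THY1 and LUM had none in either line. The part of remaining HS5 cells in the members' peaks of lower support was not tested.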

How the data were processed

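Omni-ATAC read pairs were aligned by the authors to hg38 with Bowtie2. Reads that mapped to several positions were dropped, 1 read was kept per position, and peaks were called with MACS3. Versions and the calling threshold are not given in the sources used here. In the deposited lists each reference peak has a chromosome, start, end and an unnamed whole number, read as support, the number of libraries of the line with the peak, to which the authors applied no normalization. The lists give no depth, and the study's read totals per library were not used as data. Starts were read as BED positions and printed with 1 added.

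Samples were grouped by the titles. Peaks in the gene body plus 100 kb each side of the 9 members (GENCODE 44) were counted with Python 3.11.15, pandas 2.3.3 and numpy 2.4.6. A start site peak overlapped 2500 bp each side of an annotated start, the study's distance, and the canonical transcript gave the main start. A peak was shared from 1 bp of overlap. Wilson 95% intervals over peaks were computed with scipy 1.17.1. Percentiles rank the peaks per Mb of the same windows around 19970 protein-coding genes. Sequences came from hg38 and, for promoters, RefSeq. Counting was tested on simulated peaks.

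The members, gene lists, motifs and alternatives were chosen with earlier results of these data known. Named peaks were every start site peak of a member and, per list, its widest distal peak, its widest distal peak without a partner and its nearest distal peak. Alternatives changed the flank, start site distance, transcripts, overlap or peaks kept, and 2 were added after seeing the data. These were the canonical start alone and MM.1S peaks in at least 6 libraries. No test was run, since the lists pool the culture conditions. Some genes and sequences of the lists are not reported here.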

Additional observations from a re-analysis of the deposited data

How the results depend on the processing

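Of 59 alternative values, 24 stayed within the limits set for a change and 35 moved, and the cause was not tested unless the alternative itself removes peaks. The number of members with a start site peak was counted among the values that stayed, even where it changed from 6 to 4 of 9 in RPMI8226. It ranged from 7 to 9 in MM.1S and from 4 to 7 in RPMI8226, and the members without such a peak changed with the setting. At 1000 bp CD79A had none in MM.1S, and PAX5, SPIB, CD22, CD79A and CD79B had none in RPMI8226. With 50 kb each side the windows held 102 MM.1S and 88 RPMI8226 peaks. With the gene body alone they held 39 and 41, of which 38.5% and 39.0% were start site peaks, 48.7% and 51.2% were shared, and 61.5% and 56.1% had full support. Peaks called in every library numbered 79 and 94, with 58.2% and 59.6% at start sites and 78.5% and 77.7% shared. Peaks at least as wide as the list's median numbered 78 and 81, with 64.1% and 63.0% at start sites, 71.8% and 74.1% shared and 73.1% and 84.0% with full support. Without peaks at other genes' starts 92 and 87 remained, and full support in RPMI8226 was 55.2%. A start site distance of 5000 bp gave start site shares of 63.0% and 62.5%, protein-coding transcripts alone gave 32.5% and 29.2%, and 1000 bp gave 37.5% in RPMI8226. Requiring 50% of both peaks to overlap left 44.8% and 47.9% shared. With MM.1S peaks in at least 6 libraries, an alternative chosen after seeing the data, 65.8% were shared. No paired analysis was possible because the lists pool the libraries and no test was run, and leaving out single libraries could not be done for the same reason.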
